A study of Drosophila melanogaster with 3 samples.

Results

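The regions described here are CrebB peaks on the shoulders of promoters, neither on a transcription start site (TSS) nor far from one. A peak was taken when its summit lay over 100 and up to 500 bp from the nearest protein-coding TSS and when TSSs of only 1 protein-coding gene lay within 500 bp. Of the 3915 peaks in the list that passed the authors' reproducibility threshold (the optimal list), 799 met this rule, which is 20.4%. By the strand of the gene, 610 lay upstream of the TSS and 189 downstream, and together they belonged to 735 genes. The other optimal peaks were 679 core promoter peaks of single genes, with summits 0 to 100 bp from the TSS, 657 promoter peaks with TSSs of several genes nearby, and 1780 peaks with summits over 500 bp from a TSS. The rule used position alone, and neither signal nor sequence entered it.

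The study mapped CrebB by chromatin immunoprecipitation and sequencing in whole embryos of Drosophila melanogaster, of mixed sex and aged 0 to 24 h. All 3 samples, biological replicates 1 to 3, formed a single group and carried a transgene for CrebB with green fluorescent protein at its C-terminus. There was no group without the transgene and no treatment, so the comparisons are between classes of peaks and between peaks and nearby sequence. An embryo collection over a whole day mixes all stages and cell types, and a peak cannot be assigned to any of them. One label calls these libraries input controls, whereas the antibody and source labels name CrebB; grouping followed the antibody. Read numbers are not given in the sources used here. Depth is therefore unknown, and intervals below cover only how many peaks were counted.

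CrebB is the fly relative of CREB, a basic leucine zipper (bZIP) factor that is phosphorylated when cyclic AMP rises and that binds the cyclic AMP response element (CRE), the palindrome TGACGTCA or its core TGACG. The core promoter around the TSS places RNA polymerase II. In flies, promoters of broadly active genes often carry a site for DREF (the DNA replication-related element, DRE) or for the zinc finger protein M1BP. The shoulder just upstream is where many sequence-specific activators sit, and GAGA factor, encoded by Trl, binds GA repeats there and keeps chromatin open.

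A few windows show what the sequence at these summits looked like. Each holds the summit base and 100 bases on either side, read 5′ to 3′ on the strand of the gene, from the RefSeq copy of Release 6 (dm6). Capitals mark matches, on either strand, to CACAGTGG, GAGAGCGC, the GA repeat GAGAGAG, the DRE TATCGATA, the M1BP site GGTCACAC or the CRE palindrome. Windows that touch an untranslated region were not taken. The first is the upstream window of highest signal among those taken, at Gapdh2, which encodes the glycolytic enzyme glyceraldehyde-3-phosphate dehydrogenase (chrX:15867872-15868072, plus strand). The second is the downstream one, at CG31612 (chr2L:21794875-21795075, minus strand). Neither held any of these motifs.
Gapdh2: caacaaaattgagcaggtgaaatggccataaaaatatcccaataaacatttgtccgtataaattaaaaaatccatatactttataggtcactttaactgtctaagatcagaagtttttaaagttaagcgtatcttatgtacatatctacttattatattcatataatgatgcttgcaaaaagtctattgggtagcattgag
CG31612: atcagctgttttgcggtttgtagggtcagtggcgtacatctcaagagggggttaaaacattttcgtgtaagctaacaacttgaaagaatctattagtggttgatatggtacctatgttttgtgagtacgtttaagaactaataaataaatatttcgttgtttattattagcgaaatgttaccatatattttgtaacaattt

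The next pair shows CACAGTGG, the 8-mer that most separated flank summits from nearby sequence. The first lies in an intron of larp, upstream of an internal TSS, and larp encodes a La-related RNA-binding protein (chr3R:28326509-28326709, minus strand). The second lies upstream of RluA-1, encoding a pseudouridine synthase (chr2L:10474419-10474619, minus strand).
larp: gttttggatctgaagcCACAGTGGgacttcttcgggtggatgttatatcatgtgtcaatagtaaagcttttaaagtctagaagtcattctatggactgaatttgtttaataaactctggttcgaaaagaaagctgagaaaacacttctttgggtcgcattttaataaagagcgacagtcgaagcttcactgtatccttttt
RluA-1: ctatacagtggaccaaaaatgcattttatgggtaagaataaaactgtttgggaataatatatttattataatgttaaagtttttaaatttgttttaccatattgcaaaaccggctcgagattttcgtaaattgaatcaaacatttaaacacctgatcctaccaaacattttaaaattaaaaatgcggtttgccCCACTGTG

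The following window shows GAGAGCGC, the other such 8-mer, in an intron of REPTOR and upstream of an internal TSS. REPTOR encodes a bZIP factor held back by TOR signalling (chr3R:24572562-24572762, minus strand).
REPTOR: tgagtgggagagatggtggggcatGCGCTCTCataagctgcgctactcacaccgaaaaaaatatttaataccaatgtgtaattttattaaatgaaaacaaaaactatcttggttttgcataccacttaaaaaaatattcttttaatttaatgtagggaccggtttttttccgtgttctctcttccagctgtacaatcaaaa

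The last windows show motifs that were rare here. The first is a DRE upstream of CG11151, in a window that also held CACAGTGG (chrX:13739453-13739653, plus strand). The second is an M1BP site upstream of app, encoding a palmitoyltransferase of the Fat pathway (chr3L:12266884-12267084, minus strand). The third is a full CRE palindrome upstream of Tep4, encoding a thioester-containing immune protein (chr2L:19548217-19548417, plus strand).
CG11151: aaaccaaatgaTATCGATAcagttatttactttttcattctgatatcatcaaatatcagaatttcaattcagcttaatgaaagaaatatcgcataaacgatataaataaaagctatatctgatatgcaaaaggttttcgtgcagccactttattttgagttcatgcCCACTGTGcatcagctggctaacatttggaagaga
app: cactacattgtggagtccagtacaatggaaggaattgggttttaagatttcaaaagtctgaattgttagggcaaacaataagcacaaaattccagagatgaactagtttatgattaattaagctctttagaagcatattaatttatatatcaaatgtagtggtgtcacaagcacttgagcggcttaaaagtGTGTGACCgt
Tep4: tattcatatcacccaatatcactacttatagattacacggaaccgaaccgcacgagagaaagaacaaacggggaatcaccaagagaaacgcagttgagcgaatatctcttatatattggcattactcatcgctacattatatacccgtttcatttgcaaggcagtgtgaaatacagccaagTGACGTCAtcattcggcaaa

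One replicate stood apart in the positions of its peaks. Each replicate list held 30000 peaks, and its 3915 peaks of highest signal were classified in the same way as the optimal list. Flank peaks numbered 819, 822 and 856 in replicates 1, 2 and 3. Of these, 567, 584 and 710 lay upstream and 252, 238 and 146 downstream. Core peaks numbered 750, 687 and 523. Replicate 3 thus held more upstream and fewer downstream and core peaks than the other replicates, and results that rest on it are given with and without it.

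Flank peaks sat mainly upstream. Of the 799 peaks, 76.3% were upstream (95% Wilson interval 73.3 to 79.2%), against 58.6% of the core peaks of single genes. In the replicates' own strongest peaks, the upstream share of flank peaks was 69.2%, 71.0% and 82.9%, a mean of 74.4% ± 7.45 (SD, n = 3), highest in replicate 3. Genome positions that meet the same rule were upstream in 44.2% of cases, so peaks had a density of 131 per Mb of such positions upstream and 32.2 per Mb downstream. The density at core positions was 241 per Mb. In the pooled list, 3140 flank peaks overlapped no optimal peak, and 54.3% of those were upstream (52.5 to 56.0%).

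**Figure D1:**
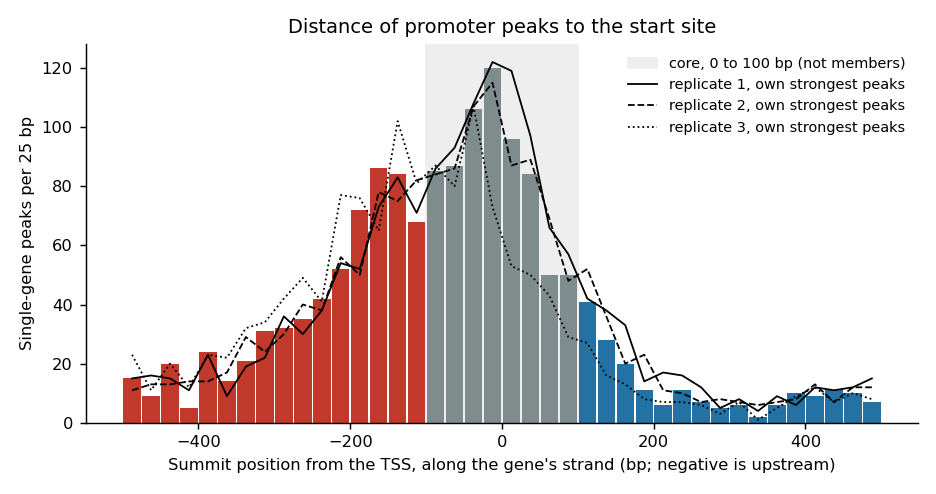
Bars count optimal-list peaks of single genes in 25 bp bins of summit position along the gene's strand (x axis, bp, upstream negative), red for upstream flank, blue for downstream flank and grey for core peaks, and lines give the 3915 strongest peaks of each replicate. The upstream side falls off slowly to 500 bp, the downstream side falls off within about 200 bp, and replicate 3 runs lower than the other replicates downstream of the TSS.

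The upstream peaks thinned out beyond 200 bp from the TSS, counted in steps of 50 bp up to 200 bp and of 100 bp beyond. There were 152 upstream peaks up to 150 bp from the TSS, 158 over 150 and up to 200 bp, 161 up to 300 bp, 90 up to 400 bp and 49 up to 500 bp. The downstream counts over the same steps were 68, 31, 29, 24 and 37. The median distance was 199 bp upstream and 190 bp downstream. The called interval of 306 peaks (38.3%) still covered the TSS, against 97.8% of core peaks. The median called width was 396 bp in every class, so coverage depended on that width as well as on distance.

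The annotation around the summits followed from their side of the TSS. Upstream, 307 summits were intergenic, 259 intronic, 28 in a 5′ UTR, 13 in a 3′ UTR and 3 in a coding exon. Downstream, 111 were in a 5′ UTR, 70 in an intron and 8 in a coding exon. Of the upstream summits, 251 lay inside the gene they were assigned to, because many fly genes start transcripts at internal TSSs, and 359 lay at the outermost TSS of their gene. The median rank was 1482 at outermost TSSs and 1440 at internal ones among these upstream peaks. A non-coding TSS lay within 100 bp of 15 of the 799 summits.

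The edges of the distance band were not gaps in the data. Just inside the inner edge lay the peaks of CG7668 and NTPase, each 1 bp beyond 100 bp from the TSS, with signal values of 422 and 332. Just outside it lay those of goe and Alas, each at 100 bp, with 373 and 252. At the outer edge, sdt at 500 bp and PNUTS at 496 bp had 207 and 226, while omd and lola at 502 bp, just beyond it, had 459 and 227.

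Upstream flank peaks ranked high by signal, the caller's own value per peak, whose scale is not stated and which was used for order only. Rank 1 is the highest of 3915. The median rank of flank peaks was 1640, against 2296 for core peaks, 1895 for promoter peaks of several genes, 1953.5 for peaks over 500 bp away and 1958 for all optimal peaks. Within the flank, the median was 1468.5 upstream and 2072 downstream. The 978 optimal peaks of highest signal, 25% of the list, held 31.9% of flank peaks, 35.9% upstream and 19.0% downstream, and 15.2% of core peaks.

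The order was seen in each replicate's own ranks. The upstream minus downstream difference in median rank was -736, -742.5 and -624.5 in replicates 1, 2 and 3, a mean of -701 ± 66.3 (SD, n = 3). The flank minus core difference was -386.5, -357.5 and -731.5, a mean of -492 ± 208 (SD, n = 3), largest in replicate 3. An exact two-sided permutation test over the 3 replicates gave p = 0.25 for both differences, the smallest value that 3 replicates can give. All 3 replicates had the same direction in both. In the optimal list the upstream minus downstream difference was -603.5, and it was -332.5 among peaks found in replicates 2 and 3, -339.5 among those found in replicates 1 and 3 and -575.5 among those found in replicates 1 and 2.

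**Figure D2:**
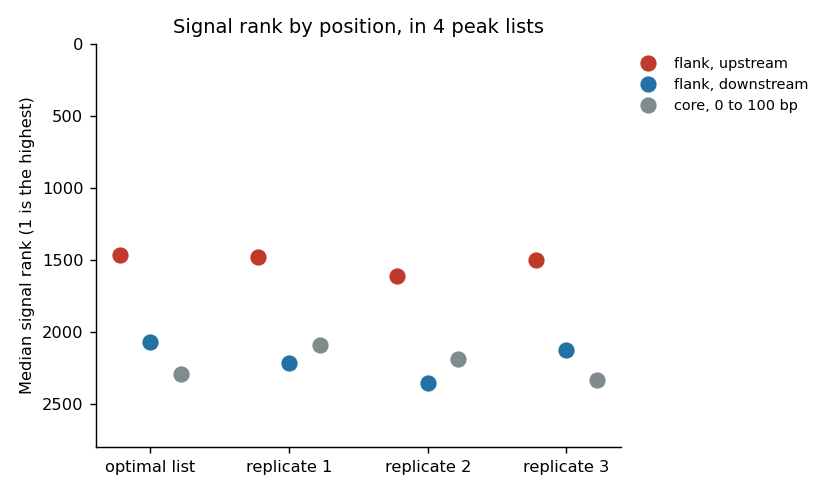
Points give the median signal rank (y axis, 1 is the highest and at the top) of upstream flank, downstream flank and core peaks in the optimal list and in the 3915 strongest peaks of each replicate. Upstream flank peaks have the highest median in all 4 lists, between 1468.5 and 1612.

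Recurrence was measured as a summit within 100 bp among each replicate's 3915 strongest peaks. Among flank peaks 430 of 799 recurred in all 3 replicates, 53.8% (50.4 to 57.2%), 345 of 610 upstream (56.6%) and 85 of 189 downstream (45.0%). Among the other 3116 optimal peaks 1529 did, a background of 49.1%. Among core peaks 293 of 679 did (43.2%). A further 244 flank peaks recurred in 2 replicates, 116 in 1 and 9 in none. The optimal list was derived from these replicate lists, so the shares describe agreement and are no independent test.

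The flank minus core difference was 10.7 percentage points (Newcombe interval 5.56 to 15.7), and the upstream minus downstream difference was 11.6 points (3.43 to 19.5). Both rest on replicate 3. Upstream flank peaks were found in 79.5%, 79.5% and 81.6% of cases in replicates 1, 2 and 3, downstream flank peaks in 83.1%, 83.6% and 58.7%, and core peaks in 81.9%, 76.1% and 61.7%. An exact two-sided permutation test over the replicates gave p = 0.5 for flank minus core and p = 1 for upstream minus downstream, where the smallest possible p is 0.25. Counting replicates 1 and 2 alone, the flank minus core difference was 4.29 points. With all 30000 peaks of each replicate it was 1.60 points, with 2 times as many peaks as the optimal list holds 5.34 points, and with 50% as many 15.0 points.

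Recurrence followed signal rank closely. Of the flank peaks ranked 1 to 500, 99.3% recurred in all 3 replicates, and the share was 91.7% at ranks up to 1000, 71.1% up to 2000, 18.1% up to 3000 and 0.680% beyond that. Core peaks gave 100%, 92.3%, 76.0%, 27.2% and 3.13% over the same steps. In each of these rank steps the flank share was at or below the core share.

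**Figure D3:**
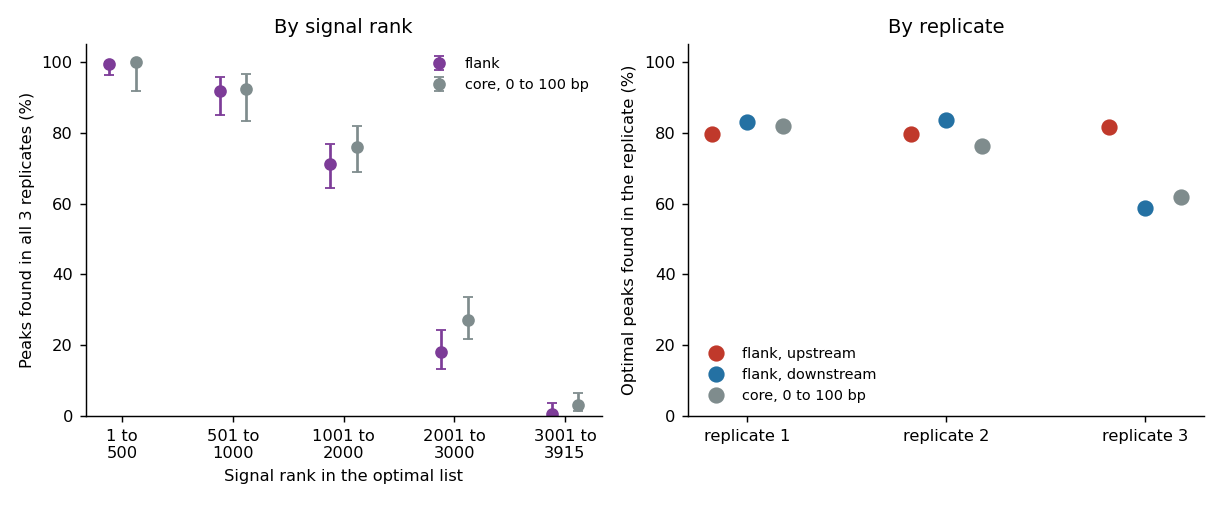
Left, the share of flank and core peaks found in all 3 replicates (y axis, %, with 95% Wilson intervals) by signal rank in the optimal list; right, the share of upstream flank, downstream flank and core peaks found in each replicate. The left panel falls from nearly all peaks at the top 500 ranks to under 5% at the bottom, and the right panel shows replicate 3 low for downstream flank peaks at 58.7% and core peaks at 61.7%.

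The positions themselves were stable. A replicate summit from the full list of 30000 lay within 250 bp of 798, 796 and 793 of the 799 flank summits in replicates 1, 2 and 3. For 762, 765 and 755 of them it lay within 100 bp, and among these alone the median shift was 14.5, 17 and 17 bp. The nearest replicate summit within 250 bp met the flank rule for the same gene and side in 89.0%, 88.1% and 89.3% of cases. It moved into the core class in 8.40%, 8.54% and 7.44%.

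Motifs were counted within 100 bp of each summit and in an equal window, called distant here, 1000 bp to its right. Shares were compared by an exact McNemar test, two-sided and adjusted over a panel of 17 motifs with the Benjamini-Hochberg method. Of the 17, 3 were more frequent at flank summits at an adjusted p under 0.05, which is 17.6%, and 1 was less frequent. The windows also differed in base composition, with a mean GC content of 38.8% at flank summits and 42.4% in the distant windows, and the part of this difference in the motif results was not tested.

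CACAGTGG lay at 42 of 799 flank summits (5.26%), against 4 of the distant windows (0.501%), with an adjusted p of 8.67e-08. The letters entered the panel because earlier results of these data had shown them at the optimal peaks as a whole, so this is not independent evidence. Its share was 1.33% at core summits, so the flank minus core difference was 3.93 points (Newcombe interval 2.15 to 5.81). Peaks over 500 bp from a TSS had it in 4.38% of cases, within the Wilson interval of the flank share (3.91 to 7.03%), so the 8-mer was not particular to flank peaks. Upstream of TSSs with no optimal peak it lay in 0.802% of windows of the same width.

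In the replicates' own flank peaks the share of CACAGTGG was 4.88%, 5.23% and 4.67%, against 1.20%, 1.02% and 1.15% at their core peaks. The mean was 4.93% ± 0.282 at flank and 1.12% ± 0.0931 at core summits (SD, n = 3 each). The flank share was higher in all 3 replicates, and the exact permutation test gave its smallest p of 0.25. Most motifs of the panel also reached that p, among them GACTAGTC, a shuffled CRE that served as a control. Members with the 8-mer had a median rank of 927.5, and 30 of the 42 recurred in all 3 replicates, against 430 of all 799 flank peaks (53.8%). Recurrence followed rank, as given above. Within 250 bp of the summits there were 88 occurrences at a median of 97 bp from the summit, and 14 of them lay within 50 bp, so the 8-mer was near the summit rather than on it. With a window of 50 bp the difference was 1.38 points with an adjusted p of 0.0628.

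The named peaks with CACAGTGG include some of the strongest. At ph-p, encoding the Polycomb repressive complex 1 subunit polyhomeotic, the downstream peak had a signal of 1210 and ranked 62, 44 and 39 in replicates 1, 2 and 3. The larp window printed above belongs to a peak with a signal of 1178 and ranks of 70, 49 and 46. That of RluA-1 had 1162 and ranks of 88, 61 and 36. PAN3, encoding a subunit of a poly(A) deadenylase, had 1112, and Rtnl1, encoding an endoplasmic reticulum-shaping reticulon, had 954. All of these recurred in all 3 replicates.

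GA repeats surrounded the flank summits. GAGAGAG lay within 100 bp of 75 of 799 summits (9.39%), against 40 distant windows (5.01%), with an adjusted p of 0.00652. In windows of 250 bp either side the shares were 27.7% and 9.64%, with an adjusted p of 5.61e-20, and in windows of 50 bp they were 2.38% and 2.0%, with an adjusted p of 0.962. The difference thus lay farther than 50 bp from the summit. Core summits had the repeat in 7.81% of cases, and the flank minus core interval of -1.33 to 4.43 points includes 0. The share was 4.91% in the windows just upstream of all TSSs. The replicate means were 10.1% ± 2.19 at the summits and 5.0% ± 0.487 in distant windows (SD, n = 3 each), higher at the summits in 3 of 3 replicates.

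The letters of the TATA box, TATAAA, lay at 29.8% of flank summits and in 22.3% of distant windows, with an adjusted p of 0.00586. This came from the upstream side, with 33.3% at upstream summits and 18.5% at downstream ones, a difference of 14.8 points (Newcombe interval 7.63 to 21.0). Windows upstream of all TSSs had TATAAA in 32.3% of cases, close to the upstream flank share. Core summits had TATAAA in 18.3% of cases, so the flank minus core difference was 11.5 points (Newcombe interval 7.18 to 15.8). At the downstream summits the difference from the distant windows was -7.41 points, with an adjusted p of 0.710. Among peaks that recurred in replicates 1 and 2 the difference was 4.95 points with an adjusted p of 0.192, and among those in all 3 replicates 8.37 points with an adjusted p of 0.0504.

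CREs were no more frequent at flank summits than 1000 bp away. The palindrome TGACGTCA lay at 3 of 799 summits and in 5 distant windows (0.375% and 0.626%, adjusted p 0.823). The core TGACG lay at 15.3% of summits and in 18.9% of distant windows, with an adjusted p of 0.125. It was less frequent at upstream summits, 13.8% against 18.9% (adjusted p 0.0407). With the distant window 1000 bp away from the TSS it was 15.3% against 20.2% (adjusted p 0.0414). In the other alternatives its adjusted p stayed above 0.05. Just upstream of all TSSs the shares were 0.441% for the palindrome and 15.2% for the core. Flank peaks of the pooled list that overlapped no optimal peak had 1.08% and 19.6%. The composite of a CRE and a C/EBP site, TGATGCAA, lay at 0 summits and in 10 distant windows, with an adjusted p of 0.00830. This call was lost with the distant window 1000 bp to the left (adjusted p 0.354), in windows of 50 or 250 bp, and without replicate 1, 2 or 3 (adjusted p 0.0535, 0.0531 and 0.0695). A count of 0 in 799 allows a share of up to 0.375%, taking 3 counts as the limit, and the 95% Wilson bound is 0.478%. The 3 summits with the palindrome were at CrebB itself, at Tep4 and at stck, which encodes the fly PINCH protein of integrin adhesions. Their signals were 399, 227 and 165, and each recurred in 2 replicates, none in all 3.

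The DRE and the M1BP site were less frequent at flank than at core summits, whereas TATAAA, as given above, was more frequent. The DRE lay at 10 flank summits (1.25%) and 63 core summits (9.28%), a difference of -8.03 points (Newcombe interval -10.5 to -5.81). The M1BP site lay at 11 flank summits (1.38%) and 64 core summits (9.43%), a difference of -8.05 points (-10.6 to -5.80). By the rule every core window held a protein-coding TSS and no flank window did, so these contrasts are not independent of the class rule. Windows just upstream of all TSSs had a DRE in 2.61% and an M1BP site in 1.81% of cases. Replicate means of the DRE share were 1.47% ± 0.853 at flank and 10.3% ± 1.96 at core summits, and of the M1BP share 0.957% ± 0.339 and 8.82% ± 0.812 (SD, n = 3 each). Direction was the same in every replicate, with an exact permutation p of 0.25, the smallest possible. The E-box CAGCTG was also less frequent at flank than at core summits, 11.3% against 18.3%.

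Within 250 bp of flank summits, 44 DREs and 43 M1BP sites were found, and 32 and 37 of them lay on the side of the TSS. Their median distance from the TSS was 69 and 35.5 bp. In windows of this width the share of flank peaks with a DRE was 4.76%, against 1.38% in the distant windows (adjusted p 0.000558), and with an M1BP site 5.01% against 2.25% (adjusted p 0.0194). The strongest flank peaks with a DRE include that of CG11151, with a signal of 750, and that of cnc, encoding the bZIP factor related to Nrf2, with 282. For the M1BP site they include app, with 449, and Vha68-2, encoding a vacuolar ATPase subunit, with 355.

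**Figure D4:**
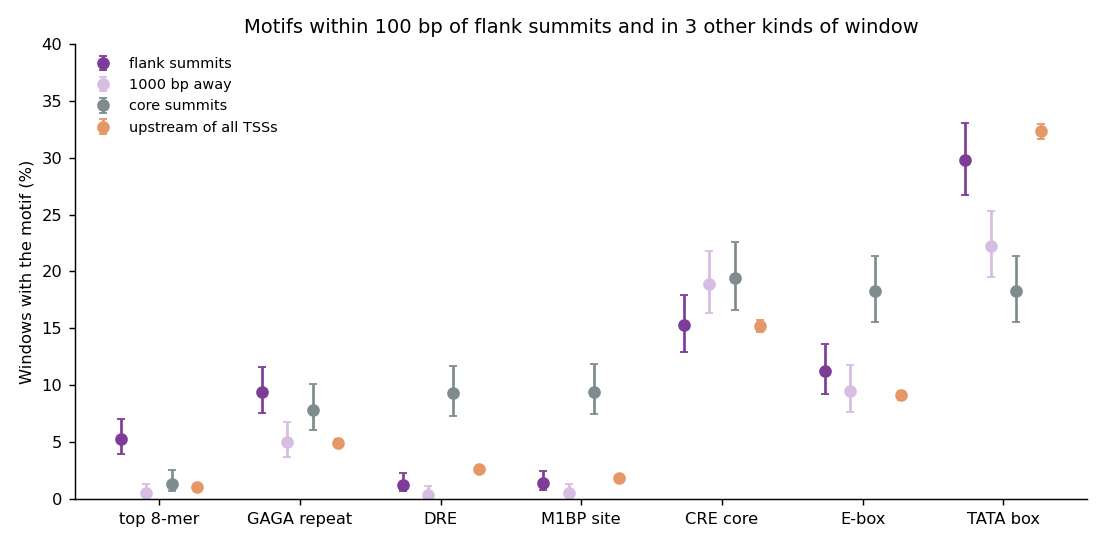
Points give the share of windows (y axis, %, with 95% Wilson intervals) that hold each motif within 100 bp of flank summits, 1000 bp to their right, at core summits and just upstream of all protein-coding TSSs. The top 8-mer stands at 5.26% at flank summits and 1.33% at core summits. The DRE and the M1BP site stand at 1.25% and 1.38% at flank summits and above 9% at core summits. Every core window holds a protein-coding TSS and no flank window does.

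Among all 32896 8-mers, merged with their reverse complements, 2 were more frequent at flank summits with an adjusted p under 0.05, which is 0.00608%, and 0 were less frequent. At an unadjusted p under 0.05 there were 1063. CACAGTGG had an adjusted p of 0.000168. The other was GAGAGCGC, a GA stretch that ends in CGC, at 34 summits against 2 distant windows (4.26% and 0.25%), with an adjusted p of 0.000319. It lay at 5.25% of upstream and 1.06% of downstream summits, and at 2.80% of core summits. With the distant window 1000 bp to the left neither passed (adjusted p 0.123 and 0.206), and 3 others did. Among peaks found in the other replicates, GAGAGCGC had an adjusted p of 1 without replicate 1 (14 summits against 1 distant window), of 1 without replicate 2 (15 against 1) and of 0.00882 without replicate 3. CACAGTGG passed in all 3 of these sets.

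Of the 799 flank summits, 76 held 1 of these 8-mers and 0 held both. Members with GAGAGCGC had a median rank of 2145.5, and 14 of the 34 recurred in all 3 replicates, against 53.8% of all flank peaks. In the replicates' own flank peaks its share was 5.01%, 3.77% and 2.34%, against 4.0%, 2.91% and 2.68% at core peaks, so in replicate 3 it was lower on the flank. The strongest members were gish, encoding a casein kinase 1 family member, with a signal of 1553, REPTOR, with 862, CG1907, with 718, Ip6k, encoding an inositol hexakisphosphate kinase, with 458, and Hexo2, encoding a hexosaminidase, with 430.

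Of 13945 protein-coding genes, 735 had a flank peak, a background of 5.27%. A single flank peak was found at 679 of these genes, 2 at 50 genes and 3 or more at 6 genes. The last were dnc, encoding a cyclic AMP phosphodiesterase, Hnf4, a nuclear receptor, Ptpmeg2, a tyrosine phosphatase, Rtnl1, larp, and pyd, the ZO-1 homologue of cell junctions. Flank peaks on both sides were found at 22 genes, and 60 of the 735 (8.16%) also had a core peak.

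Glycolysis had the largest share of the lists examined. Of 12 genes, 6 had a flank peak (50%, Wilson interval 25.4 to 74.6%), all of their 7 peaks lay upstream, and 0 had a core peak, which allows a share of up to 25%. Gapdh2 had a signal of 2218 and ranked 11, 9 and 7 in replicates 1, 2 and 3. Eno (enolase) had 913 and ranks of 158, 194 and 45, and Hex-A (hexokinase) had 897 and ranks of 76, 159 and 99. Ldh (lactate dehydrogenase) had 592 and ranks of 291, 322 and 184. Pgk (phosphoglycerate kinase) had 1 peak at 316 bp with a signal of 323 and another at 261 bp with 273, and Tpi (triose phosphate isomerase) had 184. Of the 7 peaks, 5 recurred in all 3 replicates, and the exceptions were Tpi and the weaker Pgk peak.

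Ribosomal protein genes showed another arrangement. Of 88 cytosolic ribosomal protein genes, 4 had a flank peak (4.55%), near the background. A core peak was found at 43 (48.9%) and a promoter peak of some kind at 74 (84.1%). Among all protein-coding genes the core share was 4.75% and the share with any promoter peak 18.7%. The flank peaks included RpS9 at 104 bp and RpL26 at 114 bp downstream, and RpS5a at 206 bp upstream. RpS9 and RpL26 recurred in all 3 replicates. Of 73 mitochondrial ribosomal protein genes, 2 had a flank peak, mRpL41 with a signal of 1697 and mRpL22 with 180. No flank peak was found at 48 proteasome genes or at 84 oxidative phosphorylation genes, which by 3 counts allows shares of up to 6.25% and 3.57% (Wilson bounds 7.41% and 4.37%), and 0 and 4 of these had a core peak.

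The cyclic AMP pathway was represented at several levels. Of 20 genes 4 had a flank peak (20%, 8.07 to 41.6%), and 4 had a core peak (20%). The transcription factor gene Atf3 had 1 upstream at 222 bp with a signal of 1284 and ranks of 35, 32 and 65. The phosphodiesterase gene dnc had 3, all upstream of different internal TSSs, with signals of 668, 418 and 216, each found in all 3 replicates. The kinase gene Sik3 had 1 downstream with 307.

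CrebB itself had a pair of flank peaks. The peak 415 bp downstream of a TSS, in an intron, held the CRE palindrome and had a signal of 399, with ranks of 508, 712 and 11006 in replicates 1, 2 and 3. The other, 169 bp upstream, had a signal of 189 and ranks of 1076 and 1960 in replicates 1 and 2, with no summit within 100 bp in replicate 3. Neither was among the strongest peaks of replicate 3. The embryos also carried the CrebB transgene, and its copy of the gene and the native one cannot be told apart in these lists.

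Heat shock genes had 4 of 21 members with a flank peak (19.0%, 7.67 to 40%) and 0 with a core peak, which allows up to 14.3%. Hsp83, the fly Hsp90, had a signal of 1345 at 114 bp upstream of an internal TSS and ranks of 22, 48 and 53. The small heat shock protein gene Hsp27 had 571 and Hsp26 had 287, and DnaJ-1, an Hsp40, had 183 downstream. Hsp83 and Hsp27 recurred in all 3 replicates. In the circadian list 2 of 14 genes had one, sgg, the fly GSK3, with 807 and vri, a bZIP repressor of the clock, with 404.

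Regulators of chromatin and development were also among the members. At ph-p a peak 484 bp upstream of an internal TSS had a signal of 2095 and ranks of 10, 11 and 10, and the downstream peak is described above. The gene has a tandem copy, ph-d, and how reads were shared between the copies is not given in the sources used here. Of 25 Polycomb and trithorax genes 3 had a flank peak, the others being Trl and Psc. Trl had a signal of 255, at 113 bp downstream, with unlike ranks of 3638, 430 and 2347. Of 47 patterning genes 5 had one, among them the mesoderm gene tin with 482, the limb gene Dll with 479 and the gap gene hb with 309. The pan-neuronal gene elav had a signal of 961 with ranks of 115, 95 and 62.

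The signalling, cytoskeleton, ecdysone and insulin lists had flank shares of 17.1 to 29.4%, below glycolysis and above the background of 5.27%. Core peaks were at 7 of 41 signalling, 3 of 32 cytoskeleton, 3 of 12 ecdysone and 3 of 17 insulin, TOR and Myc genes. Of 41 genes of 6 signalling pathways 7 had a flank peak (17.1%), the strongest at Stat92E, the JAK/STAT transcription factor, 371 bp downstream with a signal of 515. Of 32 cytoskeleton and adhesion genes 7 had one (21.9%), led by Moe (moesin) with 378 and sqh (myosin regulatory light chain) with 373. In the ecdysone list 3 of 12 had one, and the transporter gene E23 had 859 with ranks of 221, 179 and 51. Of the 17 insulin, TOR and Myc genes 5 had one (29.4%), all upstream, with a median rank of 3074 and 0 of 5 found in all 3 replicates. Pi3K21B, the regulatory subunit of PI3 kinase, was found in replicate 3 alone, at rank 631. The other lists had 1 to 3 genes each, at Vha68-2, Vha13 and Vha100-4 among vacuolar ATPase genes, Dp, CycE and E2f1 among cell cycle genes, Xbp1 and PEK among unfolded protein response genes, elav and Syx1A among neuronal genes, Sec13 in the secretory list and Trl in the list of promoter factors.

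**Figure D5:**
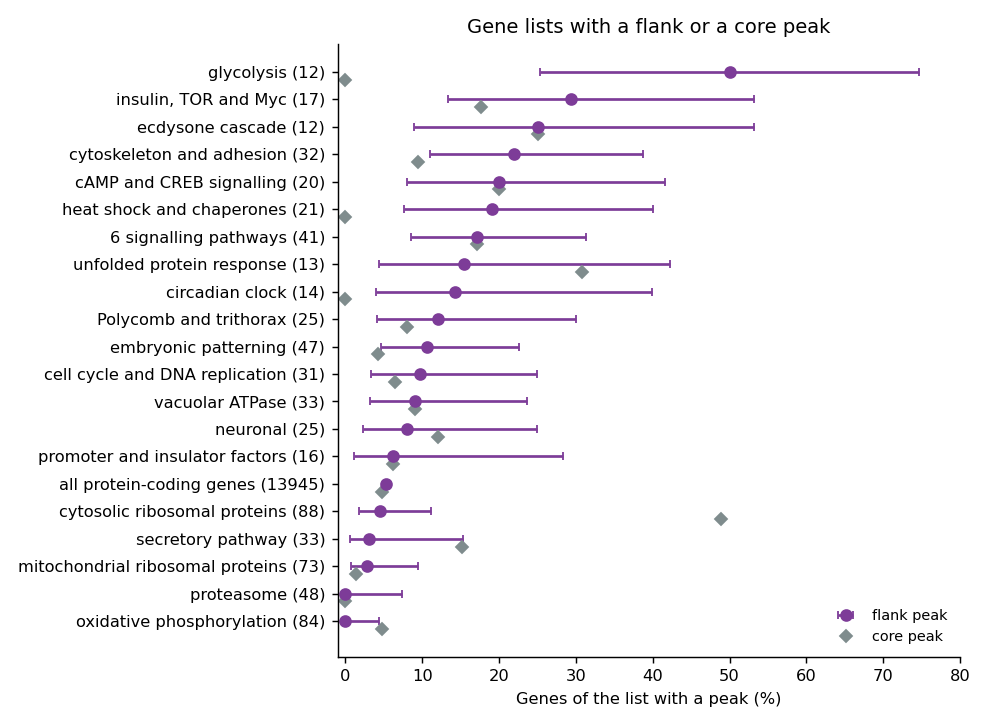
For each gene list (number of genes in brackets), circles give the share of genes with a flank peak (x axis, %, with 95% Wilson intervals) and diamonds the share with a core peak of a single gene. Glycolysis is at 50% with a flank peak and 0 with a core peak, cytosolic ribosomal proteins are at 4.55% and 48.9%, and all protein-coding genes are at 5.27% and 4.75%.

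The strongest upstream flank peak of all was that of px (plexus), a wing vein gene, with a signal of 2455 at 203 bp upstream of an internal TSS, and it ranked 5, 7 and 4 in the replicates. After Gapdh2 and ph-p came CG1888 with 2072, CG18549 with 1879 and CG1635 with 1723. Then came mRpL41, gish, Fkbp14, encoding a peptidyl-prolyl isomerase of the endoplasmic reticulum, with 1526, and Tina-1 with 1365. All 12 upstream peaks of highest signal that recurred in all 3 replicates ranked at 65 or better in every replicate.

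The strongest downstream peaks were weaker. After ph-p came CG31612 with a signal of 788 and ranks of 184, 98 and 153, and bchs (blue cheese, an autophagy-related protein) with 783. Next were Cftr, a chloride channel, with 649, CAH3, a carbonic anhydrase, with 638, CG9992 with 619 and CG18622 with 610. The phospholipid scramblase gene scramb2 had 556, followed by CG31729 with 537, CG12316 with 534, rudhira with 523 and Stat92E with 515. Of these 12 peaks, that of ph-p ranked at 62 or better in every replicate, and the others ranked between 98 and 812.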

How the data were processed

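CrebB ChIP-seq peak lists of 3 biological replicates, a pooled list and an optimal list were used as deposited, on assembly dm6. Per the file headers and companion text, the authors called peaks on each alignment, and on all 3 together, against 1 control alignment, and derived the optimal list by an IDR threshold; aligner and caller: not given in the sources used here. The deposited signal value is a score of unstated scale and was used only for ranks. The deposited −log10 q-value was not tested, and the deposited offset (another column) set the summit. The 3915 optimal peaks equal the pooled peaks of highest signal. Chromatin was sonicated to a size range of 200 to 800, per the labels.

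TSSs were those of 13945 protein-coding genes in Ensembl release 115, and sequence was read from the RefSeq copy of the same assembly. A replicate supported a peak when 1 of its 3915 strongest peaks had a summit within 100 bp. Motif shares used an exact McNemar test with Benjamini-Hochberg adjustment, and values over replicates an exact permutation test (Python 3.11.15, scipy 1.17.1, pandas 2.3.3, numpy 2.4.6). The 8-mer test was tried on simulated windows, shuffled from the same sequences on both sides of the comparison, and the motif panel test was not. Depth is unknown; Wilson and Newcombe intervals at the 95% level cover only how many peaks or genes were counted. The p-values of the McNemar tests treat peaks of 1 pooled list as units, so they say nothing of the spread between replicates. Nothing in the labels says whether the replicates share a parent stock or day.

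Members, motifs and gene lists were chosen with earlier results of these data known. Named peaks were the 12 upstream and 12 downstream of highest signal found in all 3 replicates, every peak with a CRE palindrome, the 5 strongest with a DRE or M1BP site, up to 3 per gene list, the peaks nearest the edges of the distance band and the 8-mers of smallest p; other genes were named after their values were seen. Of the list symbols, 6 had no match and 4 matched by a synonym. Alternatives changed the distance band, TSS set, peak position, gene radius, summit distance, list depth, motif and distant windows, peak set and replicates. A ribosomal protein gene and some windows of sequence are not reported here.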

Additional observations from a re-analysis of the deposited data

How the results depend on the processing

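The number of flank peaks stayed between 579 and 831 and their upstream share between 69.2 and 82.9% under the alternatives run, and the upstream minus downstream rank difference stayed negative (-633.5 to -332.5). The median rank was 1515 in a band over 150 and up to 500 bp, against 1640. The share found in all 3 replicates was 40.2% with summits within 50 bp and 59.4% within 200 bp. With 50% as many, 2 times as many and all replicate peaks it was 34.5%, 78.1% and 87.6%, and 61.7 to 68.2% without 1 replicate each. Of 4 motifs past the threshold (3 higher, 1 lower), 1 passed in windows of 50 bp, 7 in windows of 250 bp, 2 among peaks in all 3 replicates, 0 among downstream peaks, and 2 to 4 without 1 replicate each. The 8-mer count was 1 to 3 without 1 replicate each, 1 without replicate 1, 1 without replicate 2 and 3 without replicate 3. CACAGTGG missed the threshold in windows of 50 bp (1.38 points) and among downstream peaks (3.17). GAGA repeats did so in windows of 50 bp (0.375), among downstream peaks (4.23) and in the 50% of peaks with the highest signal (4.50). TATAAA matches did so among peaks in all 3 replicates (8.37) and without replicate 3 (4.95, and up to 10.5 without 1 other replicate). Their difference turned round among downstream peaks (-7.41). The lower share of TGATGCAA missed it in windows of 50 bp (-0.626) and 250 bp (-0.751), with the distant window to the left (-0.501) or away from the TSS (-0.751), in all 3 replicates (-1.40), downstream (-1.06), in the upper 50% by signal (-1.25) and without 1 replicate each (-1.42 to -1.28). The cause of these changes was not tested, although smaller sets hold fewer peaks. Of 259 alternative values of 25 results, 216 were counted as unchanged, 16 counts or shares moved, 17 lost the call, 9 gained it and 1 reversed. The 216 include motif differences that changed sign with neither value past the threshold. TGACG, for example, had 1.06 points among downstream peaks, against -3.63 among all flank peaks.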
